A study of Homo sapiens with 9 samples.

Results

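The genes followed here are the IL6 family cytokines IL11, IL6 and LIF, the IL1 cytokines IL1A and IL1B, and the chemokines CXCL8, CXCL1, CXCL2, CXCL3 and CCL2. They were picked by symbol from the table of reads counted per gene, 10 of its 58735 genes, and the choice was made with earlier results of these data known. Their own differences between groups are therefore given as a description, with log2 fold changes and standard errors but without p-values. Whether a gene was called (adjusted p under 0.05 over all tested genes in edgeR's quasi-likelihood test) is stated as a label and supports nothing further. Of the 10 genes, 8 passed the expression filter, which left 16350 tested genes, while IL1B and CCL2 did not pass.

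RNA was sequenced from SKOV3 cells, an established human ovarian cancer line, in 3 groups of 3 libraries. WT CDK9 cells stably express an introduced wild-type CDK9, the kinase of P-TEFb that releases paused RNA polymerase II. The second group is WT CDK9 cells treated with an ALK inhibitor for 24 h, and neither its name nor its dose is given for this experiment. The third group expresses the Tyr19Phe form of CDK9, in which the tyrosine that ALK phosphorylates is replaced by phenylalanine, without inhibitor. All cells were grown with fetal bovine serum, and the labels and the study's methods differ in the basal medium they name. The sources do not say whether endogenous CDK9 was depleted in the lines used here, whether each line was 1 clone, or whether the libraries of a group came from separate cultures. The p-values given for other genes therefore measure only the spread between these libraries. Both comparisons with WT CDK9 cells use the same 3 WT CDK9 libraries.

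IL6 family cytokines bind a receptor of their own and signal through the shared subunit gp130, encoded by IL6ST, to JAK kinases and STAT3. IL1 cytokines signal through IL1R1 and IL1RAP to NF-kappaB and AP-1, which drive the genes of IL6, CXCL8 and the CXCL1 to CXCL3 group. CXCL8, CXCL1, CXCL2 and CXCL3 attract neutrophils through CXCR1 and CXCR2, and CCL2 attracts monocytes through CCR2. Messenger RNAs of this kind are short-lived, and AU-rich stretches in their 3′ untranslated regions recruit decay factors.

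Libraries of WT CDK9 cells held 18939449 to 19731228 counts, those with the ALK inhibitor 18169050 to 20974903 and those of Tyr19Phe CDK9 cells 26485891 to 29320184. The detection floor was set at 3 counts, worth 0.102 to 0.165 CPM (counts per 1000000, scaled by TMM). Floors cover counting error only. ALK inhibitor replicate 2 and Tyr19Phe CDK9 replicate 3 had reads on 19944 and 20635 genes, fewer than the other libraries of their groups, which had reads on 21911 to 22744 genes. With library size as the only scaling, 344 genes were called lower and 406 higher with the inhibitor, against 447 and 297 with TMM. CDK9 lay at 47.6 to 49.7 CPM in WT CDK9 libraries, 43.8 to 47.3 CPM in inhibitor libraries and 52.4 to 59.5 CPM in Tyr19Phe CDK9 libraries, and its reads do not separate the introduced from the endogenous gene. ALK had between 0 and 5 counts in every library and was not tested. All 8 SKOV3 markers (ERBB2, KRT7, KRT8, KRT18, KRT19, EPCAM, PAX8 and MUC1) passed the filter, whereas 0 of 16 leukocyte markers did, with a summed level between 0.135 and 1.55 CPM per library and with LYZ and FCGR3A at 0 throughout. Of 10 fibroblast and endothelial markers 3 passed, COL1A1, COL1A2 and KDR. The list summed to 111 to 116 CPM in WT CDK9 libraries, 126 to 163 CPM in inhibitor libraries and 42.4 to 55.1 CPM in Tyr19Phe CDK9 libraries. COL1A1 alone averaged 104, 133 and 37.9 CPM in these groups, while DCN and PECAM1 averaged at most 0.087 CPM in any group. The endothelial markers CDH5 and KDR went the other way, with every Tyr19Phe CDK9 library above every WT CDK9 library. CDH5, which did not pass the filter, had 0 counts in each WT CDK9 library, 0 to 1 with the inhibitor and 14, 35 and 17 in Tyr19Phe CDK9 cells, and KDR averaged 1.64, 1.30 and 2.72 CPM in the 3 groups. Whether these markers have a part in the results that follow was not tested. In bulk RNA, fewer cells of a type and less RNA per cell cannot be told apart.

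IL11 was higher with the ALK inhibitor and not in Tyr19Phe CDK9 cells. IL11 (ENSG00000095752, chr19:55364389-55370463, minus strand, hg38) encodes a cytokine that signals through IL11RA and gp130. Its counts were 39, 33 and 67 in the WT CDK9 libraries, 172, 117 and 125 with the ALK inhibitor, and 39, 67 and 26 in the Tyr19Phe CDK9 libraries. Scaled for depth these were 2.00, 1.74 and 3.58 CPM, then 8.16, 6.43 and 6.46 CPM, then 1.32, 2.38 and 0.981 CPM. Every inhibitor library lay above every WT CDK9 library, while the Tyr19Phe CDK9 libraries overlapped those of WT CDK9. The means were 2.44 ± 0.996, 7.02 ± 0.994 and 1.56 ± 0.732 CPM (SD, n = 3 each). The log2 fold change against WT CDK9 was 1.52 (SE 0.31) with the inhibitor, a 2.88-fold higher level that was called, and -0.64 (SE 0.33) in Tyr19Phe CDK9 cells, which was not called. The inhibitor value stayed called in each of 20 alternative settings and lay between 1.33 and 1.91 when single libraries were left out. The Tyr19Phe value was called lower in 1 of them, at -1.07 without Tyr19Phe CDK9 replicate 2, the highest of its group.

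The promoter of IL11 is shown because it lies free of annotated exons over its whole length and holds 1 match to the AP-1 site. It spans chr19:55370464-55370713, the 250 bases before the RefSeq start on the minus strand of GRCh38.p14, with the match TGANTCA in capitals, 96 to 90 bases before the start.
IL11: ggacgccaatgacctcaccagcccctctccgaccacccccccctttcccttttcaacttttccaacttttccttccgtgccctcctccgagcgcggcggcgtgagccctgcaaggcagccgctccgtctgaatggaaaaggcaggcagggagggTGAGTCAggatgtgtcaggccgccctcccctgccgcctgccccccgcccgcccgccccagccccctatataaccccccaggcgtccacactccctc
The same AP-1 letters, searched on both strands, occur in 6.57% of 35116 promoter stretches of this length. Entries were found for 8 of the 10 genes, LIF and CCL2 being the others. The match is a description of the letters and not of factor binding.

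IL6 was higher in Tyr19Phe CDK9 cells and not with the inhibitor. IL6 (ENSG00000136244, chr7:22725884-22732002, plus strand) encodes the inflammatory cytokine that gives the family its name. The WT CDK9 libraries had 119, 103 and 145 counts (6.11, 5.44 and 7.75 CPM). The inhibitor libraries had 88, 47 and 106 counts (4.18, 2.58 and 5.48 CPM), the highest of which lay just above the lowest WT CDK9 library. The Tyr19Phe CDK9 libraries had 390, 406 and 321 counts (13.2, 14.4 and 12.1 CPM), all above the WT CDK9 range. Against WT CDK9 the log2 fold change was 1.04 (SE 0.20, 2.06-fold) in Tyr19Phe CDK9 cells, called in every one of the 20 alternatives, and -0.65 (SE 0.21) with the inhibitor, not called. The latter depended on which inhibitor libraries were kept. It was -0.92 and called lower without inhibitor replicate 3, and -0.41 and not called without inhibitor replicate 2, which also had the fewest detected genes. IL6 overlaps the antisense gene AC073072.1, which had 2 to 13 counts per library, and STEAP1B on the minus strand, which had 0 to 5, and whether reads were counted by strand is not given in the sources used here.

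The part of the IL6 promoter free of exons annotated in GENCODE is shown for its match to the kappaB consensus. That was the only match among the promoters of IL11, IL6, IL1A, IL1B and CXCL8. The stretch chr7:22726950-22727146 on the plus strand reaches from 250 to 54 bases before the RefSeq start, with the match in capitals. In the deposited annotation IL6 starts further upstream, at 22725884, so the stretch lies within the gene as counted.
IL6: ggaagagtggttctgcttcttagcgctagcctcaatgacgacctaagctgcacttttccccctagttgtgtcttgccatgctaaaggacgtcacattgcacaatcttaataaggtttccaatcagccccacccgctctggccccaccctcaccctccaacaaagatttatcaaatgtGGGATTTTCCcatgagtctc
The kappaB consensus, searched on both strands, occurs in 9.96% of the 35116 stretches. Only a single fixed form of the consensus was searched. Sites of other forms were not looked for, so a promoter without a match, that of CXCL8 included, may still hold a kappaB site.

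LIF, a further ligand of gp130 that pairs it with LIFR, was far more abundant and was not called in either comparison with WT CDK9. LIF (ENSG00000128342, chr22:30240447-30246851, minus strand) had 118, 114 and 111 CPM in WT CDK9 cells. With the inhibitor it had 98.1, 103 and 103 CPM, every library lower than every WT CDK9 library. In Tyr19Phe CDK9 cells it had 106, 115 and 114 CPM, which overlapped WT CDK9. The log2 fold changes were -0.17 (SE 0.06) and -0.04 (SE 0.06), and neither was called by edgeR. DESeq2 called LIF lower with the inhibitor. Of the genes within 5 Mb on either side of LIF, 73 were tested, and 21 of these were called higher and 1 lower in Tyr19Phe CDK9 cells. Over all tested genes 7.61% were called higher and 10.4% lower there. The median log2 fold change of these neighbours was 0.17, and LIF lies below it. The antisense genes AC004264.1 and LIF-AS1 overlap LIF by 647 and 92 bases and had 15 to 85 and 0 to 58 counts.

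The balance of IL11 and IL6 differed between the groups. Per kilobase of gene length, the ratio of IL11 to IL6 was 0.248 to 0.358 in the WT CDK9 libraries, 0.913 to 1.93 in the inhibitor libraries and 0.0627 to 0.128 in the Tyr19Phe CDK9 libraries. The 3 ranges did not overlap. These genes were chosen with the comparisons known and no other pair was compared, so the ratio is a description. In Tyr19Phe CDK9 cells IL11 itself overlapped WT CDK9 and was not called. In the direct contrast of Tyr19Phe CDK9 with inhibitor-treated cells, IL11 was lower by a log2 fold change of -2.16 (SE 0.32) and IL6 higher by 1.69 (SE 0.21). Both were called in all 20 alternatives, between -2.60 and -1.92 for IL11 and between 1.46 and 1.96 for IL6. LIF was 0.14 higher (SE 0.06) and not called, though every Tyr19Phe CDK9 library lay above every inhibitor library. It was called higher in 3 of the 20 alternatives.

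**Figure D1:**
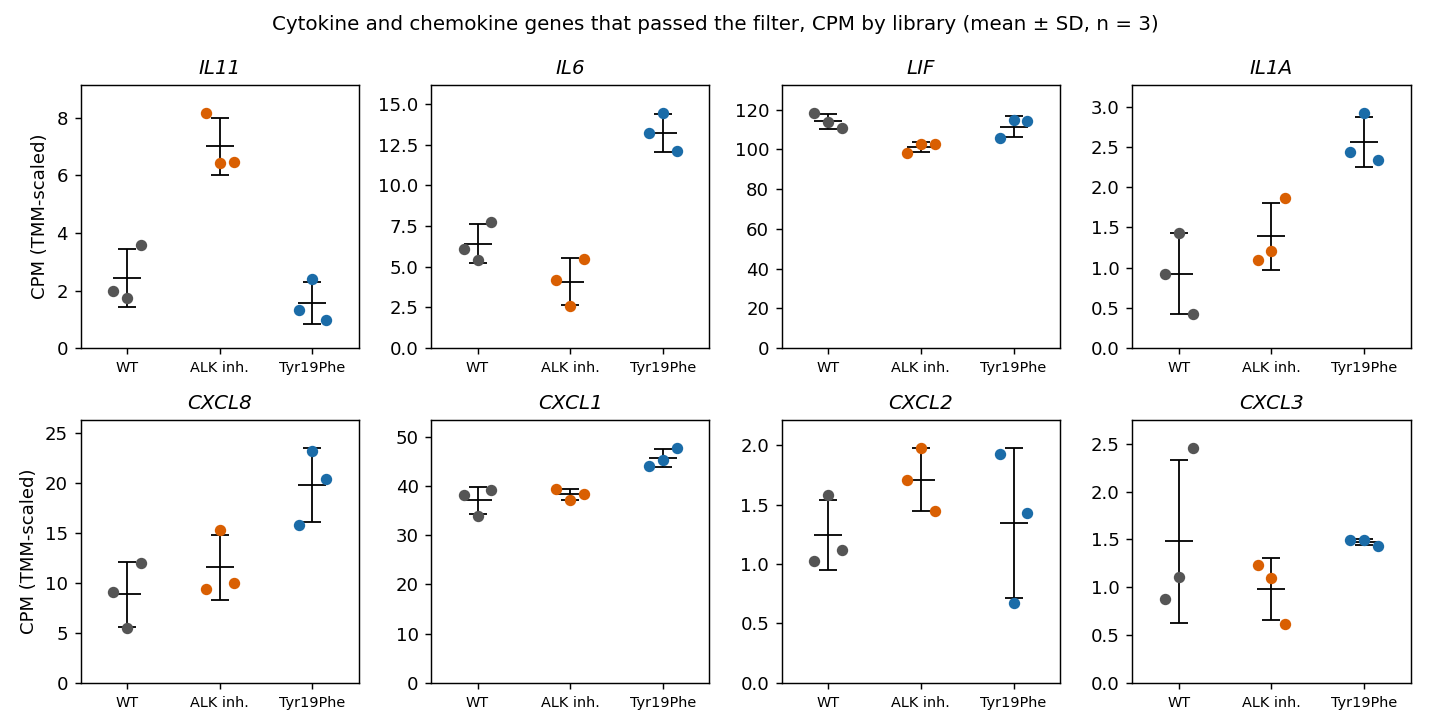
CPM (scaled by TMM) of the 8 genes that passed the filter, 1 panel per gene, with a point for each library of the 3 groups and bars for the mean ± SD (n = 3). The inhibitor libraries of IL11 (6.43 to 8.16 CPM) sit above all others, and the Tyr19Phe CDK9 libraries of IL6 (12.1 to 14.4 CPM) do the same.

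IL1A was higher in Tyr19Phe CDK9 cells, from a low level. IL1A (ENSG00000115008, chr2:112773915-112784590, minus strand) encodes an IL1 receptor agonist that acts as an alarm signal when released from damaged cells. Its counts were 18, 27 and 8 in WT CDK9 cells (0.924, 1.42 and 0.428 CPM), 23, 22 and 36 with the inhibitor (1.09, 1.21 and 1.86 CPM) and 72, 82 and 62 in Tyr19Phe CDK9 cells (2.44, 2.92 and 2.34 CPM). All Tyr19Phe CDK9 libraries lay above all others, and the inhibitor libraries overlapped WT CDK9. The log2 fold change was 1.46 (SE 0.45, 2.76-fold) in Tyr19Phe CDK9 cells, called, and 0.58 (SE 0.46) with the inhibitor, not called. The Tyr19Phe call held in 15 of the 20 alternatives. It was lost when WT CDK9 replicate 1, WT CDK9 replicate 3 or Tyr19Phe CDK9 replicate 2 was left out. Values lay between 1.13 and 1.92 over all single omissions. The call was also lost at an adjusted p under 0.01, and IL1A was not tested where every library needed at least 10 counts. IL1B, the secreted IL1 agonist 45.2 kb away on chromosome 2, had 0, 1 and 5 counts, then 0, 6 and 0, then 6, 1 and 6, which gives no comparison at this depth.

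The part of the IL1A promoter free of exons annotated in GENCODE is shown for its AP-1 match, in capitals. It is chr2:112784494-112784650 on the minus strand, from 250 to 94 bases before the start. In the deposited annotation IL1A reaches to 112784590, so this match lies within the gene as counted.
IL1A: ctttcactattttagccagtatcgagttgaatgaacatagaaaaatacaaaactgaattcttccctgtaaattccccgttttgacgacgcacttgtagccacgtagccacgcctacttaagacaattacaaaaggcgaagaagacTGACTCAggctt
A second AP-1 match lies 55 to 49 bases before the start, within an annotated exon of another IL1A transcript. The promoter of IL1B had no match to the kappaB, AP-1 or TATAAA letters.

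CXCL8 was about as much higher in Tyr19Phe CDK9 cells as IL6. CXCL8 (ENSG00000169429, chr4:73740506-73743716, plus strand) encodes interleukin 8. It had 178, 104 and 224 counts in WT CDK9 cells (9.13, 5.49 and 12 CPM), 198, 278 and 194 with the inhibitor (9.40, 15.3 and 10.0 CPM) and 468, 652 and 540 in Tyr19Phe CDK9 cells (15.8, 23.2 and 20.4 CPM). The Tyr19Phe CDK9 libraries lay above all 6 others, though the lowest of them was close to the highest inhibitor library. The log2 fold change was 1.16 (SE 0.20, 2.23-fold) in Tyr19Phe CDK9 cells, called in all 20 alternatives and between 0.91 and 1.44 when single libraries were left out. It was 0.38 (SE 0.20) with the inhibitor and not called. In the direct contrast CXCL8 was 0.78 higher in Tyr19Phe CDK9 cells (SE 0.19), called in all 20 alternatives.

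Its promoter is shown from 250 to 51 bases before the start, chr4:73740319-73740518 on the plus strand, with an AP-1 match 137 to 131 bases before the start in capitals.
CXCL8: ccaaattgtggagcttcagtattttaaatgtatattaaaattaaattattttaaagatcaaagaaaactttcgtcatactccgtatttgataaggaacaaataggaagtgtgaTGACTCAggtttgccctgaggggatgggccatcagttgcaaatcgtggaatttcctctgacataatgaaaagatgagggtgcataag
A TATAAA match, a form found in 10.7% of the 35116 stretches, lies 31 to 26 bases before the start, outside the bases shown.

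CXCL1, the most abundant chemokine here, differed less but with little spread. CXCL1 (ENSG00000163739, chr4:73869393-73871242, plus strand) had 38.2, 33.9 and 39.1 CPM in WT CDK9 cells. The inhibitor libraries, at 39.3, 37.1 and 38.3 CPM, overlapped these, and the Tyr19Phe CDK9 libraries, at 44.1, 45.2 and 47.7 CPM, lay above them. The log2 fold change was 0.30 (SE 0.08, 1.23-fold) in Tyr19Phe CDK9 cells, called except without WT CDK9 replicate 2, where it was 0.25. It was 0.05 (SE 0.09) with the inhibitor. In the direct contrast it was 0.25 (SE 0.08) and called. That call was lost in 4 of the 9 fits that left out a library (inhibitor replicate 2 or 3, Tyr19Phe CDK9 replicate 2 or 3). Values lay between 0.23 and 0.28 over all 9. The call was also lost without inhibitor replicate 2 and Tyr19Phe CDK9 replicate 3 together, and at an adjusted p under 0.01.

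CXCL2 and CXCL3, the close relatives of CXCL1, were low and were called in no comparison. CXCL2 (ENSG00000081041, chr4:74097035-74099293, minus strand) had 20, 30 and 21 counts in WT CDK9 cells, 36, 36 and 28 with the inhibitor and 57, 19 and 38 in Tyr19Phe CDK9 cells. Against WT CDK9 it differed by 0.46 (SE 0.48) with the inhibitor and 0.12 (SE 0.48) with Tyr19Phe on the log2 scale. CXCL3 (ENSG00000163734, chr4:74036589-74038807, minus strand) had 17, 21 and 46 counts, then 26, 20 and 12, then 44, 42 and 38. The third WT CDK9 library alone set its direction with Tyr19Phe, which was -0.0046 (SE 0.49) with that library and 0.57 without it, and with the inhibitor the value went from -0.58 (SE 0.51) to -0.0039. CCL2 (ENSG00000108691, chr17:34255218-34257203, plus strand) had 0 counts in all 9 libraries.

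The 3 CXCL promoters hold the same kappaB letters at nearly the same distance from the start, and 30 bases around the match, in capitals, are shown for comparison. They are chr4:73869304-73869333 (plus strand) for CXCL1, chr4:74099254-74099283 (minus) for CXCL2 and chr4:74038749-74038778 (minus) for CXCL3.
CXCL1: ctggaactccGGGAATTTCCCtggcccggg
CXCL2: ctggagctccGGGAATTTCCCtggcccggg
CXCL3: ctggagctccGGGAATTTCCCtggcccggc
The capitals cover 2 overlapping matches on opposite strands. Over the 250 bases before the start CXCL1 and CXCL3 were 81.4% identical, CXCL2 and CXCL3 73.3% and CXCL1 and CXCL2 71.4%, against 42.3% to 52.9% for the other pairs. The transcripts also share sequence, so reads of these genes are partly uncertain. Of the 50-base words of each GENCODE transcript, 5.33% of CXCL1, 10.1% of CXCL2 and 5.26% of CXCL3 also occurred in the other 2 genes. The limit holds to a lesser degree for IL11, which shared 2.58% of its words with many other genes. LIF shared 1.88% with LIF-AS1 and LIF-AS2, and IL6 shared 0.371% with IL6-AS1.

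CXCL8 and CXCL1 were higher in a stretch of chromosome 4 in which the median gene was lower. CXCL8, CXCL1, CXCL3 and CXCL2 lie within 359 kb. Of 44 tested neighbours within 5 Mb on either side of CXCL1, 18 were called lower and 0 called higher in Tyr19Phe CDK9 cells. Over all tested genes 10.4% were called lower and 7.61% higher there. The median log2 fold change of these neighbours was -0.32. With the inhibitor their median was -0.04, and 2 were called lower, beside 2.73% of all tested genes. The median difference with Tyr19Phe was -0.02 around IL11, -0.0071 around IL6 and -0.05 around IL1A. Whether the level of the neighbours has a part in the values of CXCL8 and CXCL1 was not tested.

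**Figure D2:**
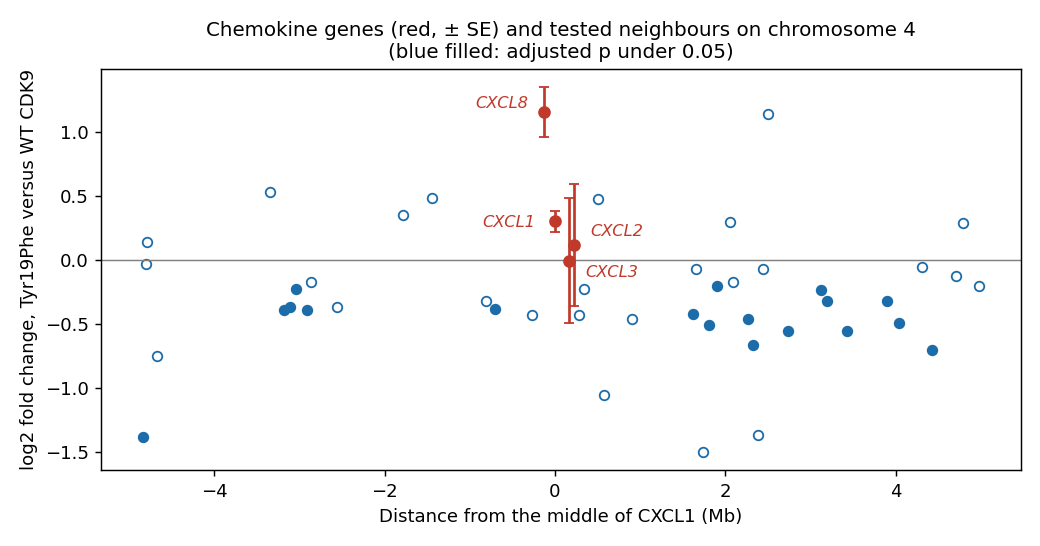
Log2 fold change of Tyr19Phe CDK9 against WT CDK9 for tested genes within 5 Mb of CXCL1, by distance from its middle in Mb, with the chemokines in red with SE and called neighbours as filled blue points. CXCL8 at 1.16 and CXCL1 at 0.30 lie above the median of the neighbours, -0.32.

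Counted over the set, 1 of the 8 tested genes was called higher with the inhibitor (IL11), beside 1.82% of all tested genes, and 0 were called lower, beside 2.73%. At an unadjusted p under 0.05 in edgeR 2 were lower, and DESeq2 called 1 lower, LIF. In Tyr19Phe CDK9 cells 4 of 8 were called higher (IL6, IL1A, CXCL8 and CXCL1), beside 7.61% of all tested genes, and 0 were called lower, beside 10.4%. No gene of the set was lower at an unadjusted p under 0.05 or by DESeq2 there. In the direct contrast 3 were called higher in Tyr19Phe CDK9 cells (IL6, CXCL8 and CXCL1), beside 9.57%, and 1 lower (IL11), beside 11.1%. Nothing is read from these counts, since the genes were chosen with these comparisons known. Libraries that did not overlap WT CDK9 were seen for 1 gene above and 1 below with the inhibitor, where 9.31% and 10.3% of all tested genes did so. They were seen for 4 genes above and 0 below with Tyr19Phe, where 15.4% and 17.2% did. In the direct contrast 6 genes lay above and 1 below the inhibitor libraries without overlap, where 16.7% and 17.7% did. The median log2 fold change of the 8 genes was 0.21 in both comparisons with WT CDK9 and 0.42 in the direct contrast, against medians between -0.001 and 0.0035 over all tested genes. The equal medians do not mean a shared shift. With the inhibitor IL11 was at 1.52 and IL6 at -0.65, and with Tyr19Phe they were at -0.64 and 1.04. Nothing is read from these medians either, for the same reason.

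**Figure D3:**
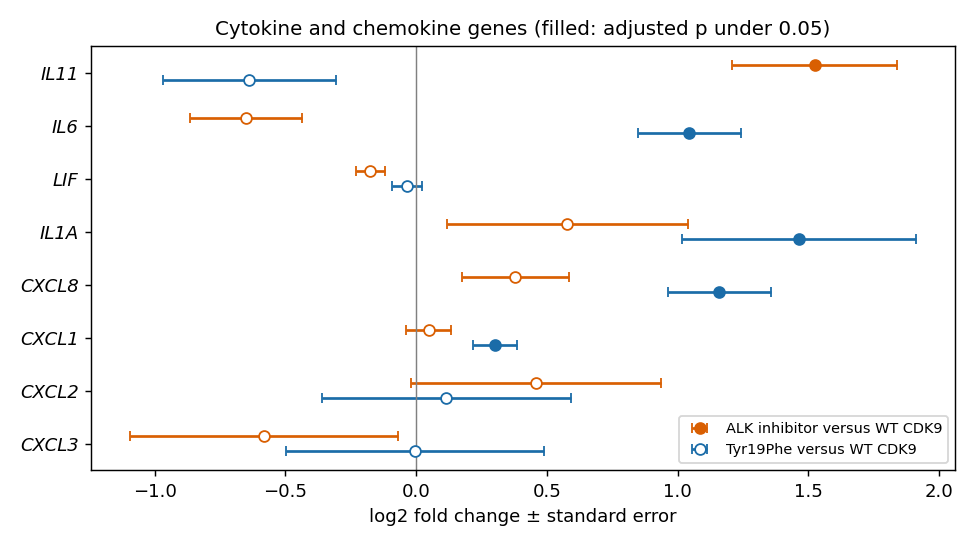
Log2 fold change ± SE of the 8 tested genes with the ALK inhibitor (orange) and with Tyr19Phe (blue), each against WT CDK9, with filled points for called genes. IL11 is at 1.52 with the inhibitor and -0.64 with Tyr19Phe, and IL6 is at -0.65 and 1.04.

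On the scale of CPM per kilobase of gene length, the order of the genes was led by LIF (28.8 ± 0.973) and CXCL1 (28.6 ± 2.14) in WT CDK9 cells, whose libraries overlapped. CXCL8 (3.90 ± 1.43) and IL6 (3.11 ± 0.575) followed and also overlapped. IL11, CXCL2, CXCL3 and IL1A came next, from 0.914 down to 0.436, each overlapping its neighbour in this order, and IL1B (0.0345) and CCL2 (0) came last. With the inhibitor CXCL1 (29.5 ± 0.858) stood above LIF (25.5 ± 0.681) without overlap, and IL11 (2.63 ± 0.372) came before IL6 (1.97 ± 0.701), with overlap. In Tyr19Phe CDK9 cells CXCL1 (35.2 ± 1.44) and LIF (28.1 ± 1.29) again did not overlap, and IL11 (0.585 ± 0.274) was the last of the tested genes, overlapping CXCL3 above it. By mean CPM over all libraries LIF lay at the 86.6th percentile of tested genes, CXCL1 at the 65.8th, IL6 at the 37th, IL11 at the 28.9th and CXCL3, the lowest, at the 17.4th.

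**Figure D4:**
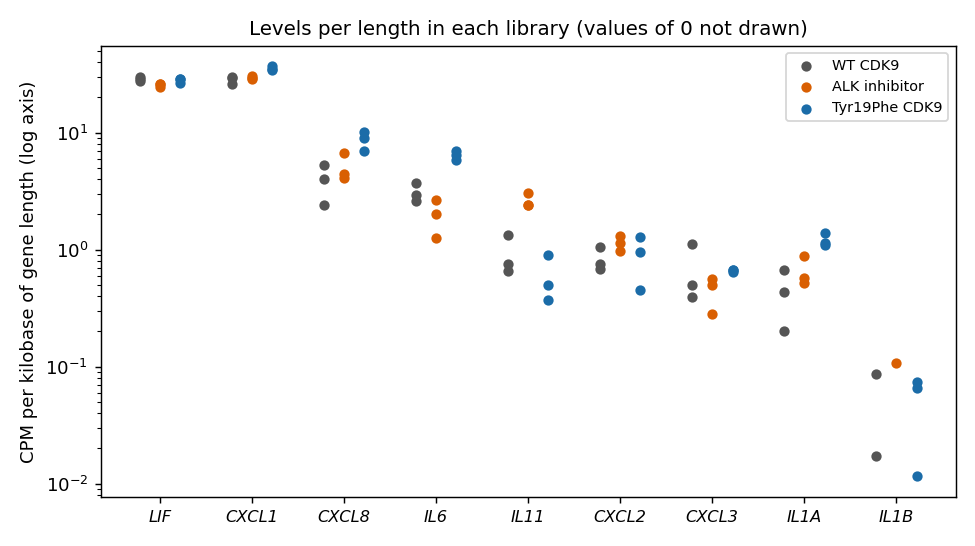
CPM per kilobase of gene length on a log axis for each gene with counts, 1 point per library coloured by group, with values of 0 not drawn. LIF and CXCL1 (25.5 to 35.2 on average) stand above CXCL8 and IL6, and IL11 moves from 0.914 in WT CDK9 cells to 2.63 with the inhibitor.

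The 3′ untranslated regions of these transcripts were searched for AU-rich motifs. The core ATTTA occurred in all 10 GENCODE canonical transcripts, as in 67.5% of 19538 transcripts with such a region. The longer TTATTTATT occurred in 7 of 10, against 8.44% of the 19538. IL11 had 6 copies, CXCL2 had 5, CXCL1 had 3, LIF and IL1B had 2 each, CXCL8 and CXCL3 had 1 each, and IL6, IL1A and CCL2 had 0. The genes that were called in Tyr19Phe CDK9 cells included 2 with 0 copies (IL6 and IL1A) and 2 with copies (CXCL8 and CXCL1).

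Reads were found on the receptor subunits of IL6, IL11 and LIF, while CNTFR, the ciliary neurotrophic factor receptor of the family, had 0 to 4 counts per library and was not tested. IL6ST averaged 313 ± 8.08 CPM in WT CDK9 cells, 322 ± 18.2 with the inhibitor and 318 ± 10.5 in Tyr19Phe CDK9 cells (SD, n = 3), with log2 fold changes of 0.04 and 0.02 (SE 0.04 each) that were not called. IL6R, the IL6-binding subunit, fell in Tyr19Phe CDK9 cells from 18.5 ± 1.17 to 12.5 ± 0.744 CPM, by a log2 fold change of -0.57 (SE 0.12, adjusted p = 0.00091 in edgeR), all libraries lower, and stood at 18.7 ± 0.893 CPM with the inhibitor. IL11RA averaged 6.11, 8.2 and 8.0 CPM and LIFR 91.7, 102 and 88.3 CPM, neither called against WT CDK9. Of the IL1 receptor subunits, IL1R1 fell in Tyr19Phe CDK9 cells (log2 fold change -0.40, SE 0.11, adjusted p = 0.010) and IL1RAP rose (0.31, SE 0.11, adjusted p = 0.039). The IL1R1 call was lost without WT CDK9 replicate 1 or 3 or Tyr19Phe CDK9 replicate 2 (adjusted p between 0.059 and 0.10). The IL1RAP call was lost without WT CDK9 replicate 1 or 2 or Tyr19Phe CDK9 replicate 1 or 3 (between 0.057 and 0.27), and by DESeq2. The chemokine receptors CXCR1, CXCR2 and CCR2 had 0 counts in all 9 libraries.

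Of the 34 receptors and signal transducers listed for these pathways, 24 were tested. This list, and those of other cytokines and of regulators below, were also chosen with earlier results of these data known. Their shares and adjusted p-values are therefore a description. With the inhibitor 2 were called lower (8.33%, against 2.73% of all tested genes) and 0 higher (against 1.82%), with a median log2 fold change of 0.04. JAK1, the kinase bound to gp130, fell by 0.13 on the log2 scale (adjusted p = 0.039), and 4 others were higher at an unadjusted p under 0.05. DESeq2 also called 0 higher. The JAK1 call held in only 2 of the 9 fits without 1 library, those without Tyr19Phe CDK9 replicate 1 or 2, and was lost in the other fits with adjusted p between 0.051 and 0.25. In Tyr19Phe CDK9 cells 5 were called lower (20.8%, against 10.4% of all tested genes) and 3 higher (12.5%, against 7.61%), with a median of 0.02. Besides IL6R and IL1R1, the TAK1 adaptor TAB2 fell by 0.24 (adjusted p = 0.0016), the TAK1 kinase gene MAP3K7 by 0.21 (0.010) and the phosphatase gene PTPN11 by 0.15 (0.011). Besides IL1RAP, the adaptor TAB1 rose by 0.38 (adjusted p = 0.0037) and STAT3, the main effector of gp130, by 0.14 (0.016). IL6R, TAB2 and TAB1 were called in every one of the 20 alternatives. MAP3K7 was lost without WT CDK9 replicate 1 or Tyr19Phe CDK9 replicate 2 (adjusted p 0.056 and 0.071), PTPN11 without WT CDK9 replicate 2 (0.063) and STAT3 without WT CDK9 replicate 2 or Tyr19Phe CDK9 replicate 1 (between 0.058 and 0.096). 

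Of 68 other cytokines and chemokines, 35 had no count in any library and 13 were tested. With the inhibitor 0 were called in either direction by edgeR, with 1 lower and 1 higher at an unadjusted p under 0.05, and DESeq2 called 0. In Tyr19Phe CDK9 cells 2 were called lower and 1 higher (15.4% and 7.69%, against 10.4% and 7.61% of all tested genes). CXCL16, a transmembrane chemokine that binds CXCR6, had 169, 244 and 216 counts in WT CDK9 cells, 208, 129 and 177 with the inhibitor and 49, 52 and 34 in Tyr19Phe CDK9 cells, or 11 ± 2.15, 8.70 ± 1.45 and 1.60 ± 0.289 CPM. It fell by 2.78 on the log2 scale (SE 0.22, adjusted p = 2.8e-11), and every Tyr19Phe CDK9 library lay below every other library. IL32, a proinflammatory cytokine, rose from 12.3 ± 2.23 to 20.9 ± 2.49 CPM (log2 fold change 0.76, SE 0.14, adjusted p = 1.5e-04). CLCF1, a further gp130 ligand, fell by 0.29 (adjusted p = 0.038) but was not called without any 1 of the WT CDK9 libraries or without Tyr19Phe CDK9 replicate 1 or 2 (adjusted p between 0.066 and 0.18). The medians of the 13 log2 fold changes were 0.09 with the inhibitor and 0.13 in Tyr19Phe CDK9 cells.

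All 43 listed regulators of transcription and mRNA decay were tested. With the inhibitor 2 were called lower (4.65%, against 2.73% of all tested genes) and 1 higher (2.33%, against 1.82%), with a median log2 fold change of -0.04. The AP-1 gene JUNB rose from 71.3 ± 7.70 to 98.4 ± 4.37 CPM (log2 fold change 0.46, SE 0.07, adjusted p = 2.1e-05), in all 3 libraries, and held in every fit that left out a library. KHSRP, an AU-rich element binding decay factor, fell by 0.19 (adjusted p = 0.0019) and held likewise. JUN, a partner in AP-1, fell by 0.16 (adjusted p = 0.019), but not without WT CDK9 replicate 2 or inhibitor replicate 3 (adjusted p between 0.15 and 0.19). In Tyr19Phe CDK9 cells 7 were called lower (16.3%, against 10.4%) and 9 higher (20.9%, against 7.61%), with a median of 0.07.

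Among the NF-kappaB genes in that comparison, TNFAIP3, a feedback inhibitor and target of the pathway, rose from 9.93 ± 0.558 to 19.6 ± 1.69 CPM (log2 fold change 0.98, SE 0.14, adjusted p = 5.3e-06). NFKB2, the precursor of the p52 subunit, rose by 0.45 (adjusted p = 3.5e-05). DUSP1, a MAP kinase phosphatase, rose by 0.32 (adjusted p = 0.0020), JUNB by 0.25 (0.0089) and CEBPB, a factor of the IL6 and CXCL8 promoters, by 0.30 (0.011). JUNB was not called without WT CDK9 replicate 3 (adjusted p = 0.11), nor CEBPB without WT CDK9 replicate 3 or Tyr19Phe CDK9 replicate 2 (0.092 and 0.10). The other genes called higher were IKBKB, RELA, IKBKG and TNIP1, each lost in 2 or more of the fits that left out a library. NFKB1 went the other way, with every Tyr19Phe CDK9 library below every WT CDK9 library (log2 fold change -0.16, SE 0.06), but was not called. RELB, REL, NFKBIA, NFKBIB, NFKBIE, NFKBIZ, BCL3 and CHUK were not called either, with values between 0.0018 (REL) and 0.33 (CHUK). HNRNPD, the AU-rich element binding factor AUF1, fell by 0.42 (SE 0.05, adjusted p = 1.5e-08) to 292 ± 20.1 CPM. It lies on chromosome 4, but outside the stretch within 5 Mb of CXCL1. RC3H2, a Roquin paralogue that binds decay stem-loops, fell by 0.45 (adjusted p = 1.7e-08), ZC3H12C of the Regnase family by 0.41 (0.0020), the immediate early factor EGR1 by 0.81 (8.2e-06) and the AP-1 gene FOSL2 by 0.25 (9.0e-06). ZFP36L2 and RC3H1 were also called lower, and were lost in 2 and 5 of the 9 fits that left out a library.

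**Figure D5:**
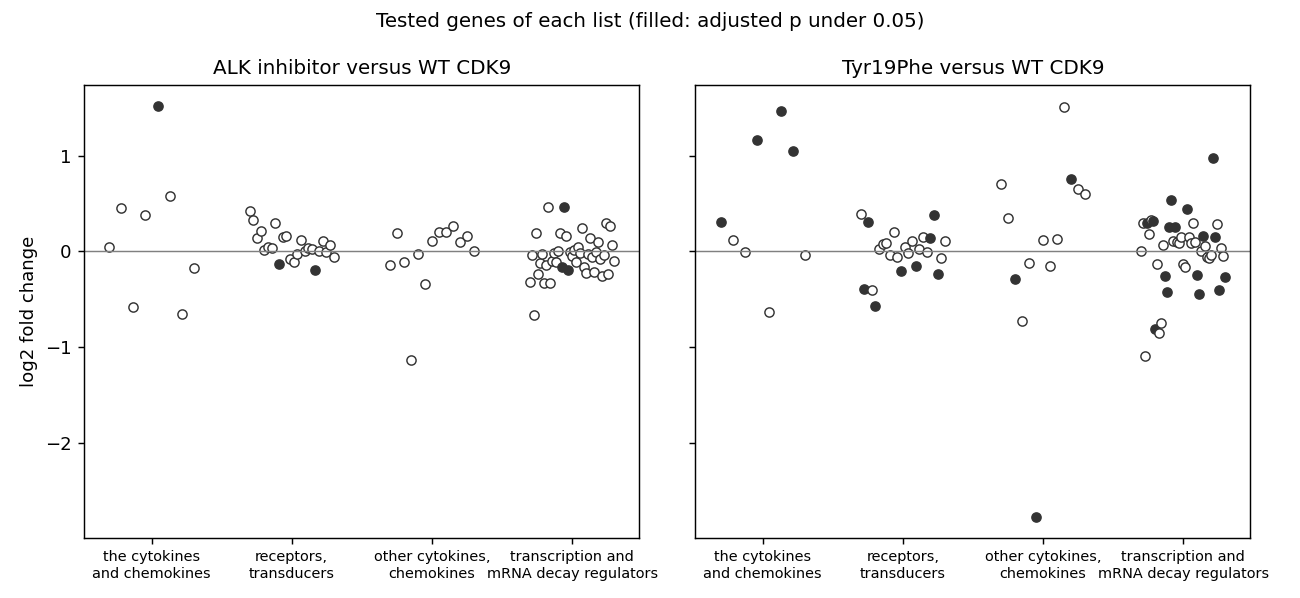
Log2 fold change of each tested gene of the chosen set and of the 3 companion lists in both comparisons with WT CDK9, 1 panel per comparison, with filled points for called genes. In the Tyr19Phe comparison CXCL16 lies lowest, at -2.78, and TNFAIP3 highest among the regulators, at 0.98.

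The genes whose log2 CPM followed IL11 most closely across the 9 libraries, of 14033 compared, were MXD4, PDK2, SPEG, ERBB2 and AKR1C3, with Pearson correlations between 0.945 and 0.958. The libraries fall into the 3 groups and share their depth, so the correlation is a description. MXD4, a MYC antagonist, averaged 49.5, 57.9 and 42.6 CPM, and PDK2, a kinase of pyruvate dehydrogenase, averaged 11.4, 16.7 and 10.5 CPM. SPEG, a muscle kinase, averaged 7.60, 10.4 and 5.86 CPM. ERBB2, the HER2 receptor gene that SKOV3 cells carry in many copies, averaged 1800, 2625 and 1470 CPM, and the aldo-keto reductase gene AKR1C3 averaged 108, 153 and 88.4 CPM. All 5 had their highest mean with the inhibitor and their lowest in Tyr19Phe CDK9 cells, which follows from picking them by their correlation with IL11. Against WT CDK9, MXD4 and SPEG were not called with the inhibitor, and PDK2 and SPEG were not called in Tyr19Phe CDK9 cells.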

How the data were processed

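The data are 9 RNA-seq libraries of SKOV3 cells, assigned to groups and replicate numbers by their labels. Reads were mapped to hg38, and the submitters' processing notes name CASAVA, HISAT2 2.0.5 and featureCounts 1.5.0-p3. The annotation release and the strand setting are not given in the sources used here. The authors deposited whole-number counts per gene without normalization, beside gene length, position and biotype.

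edgeR 4.0.16 (with limma 3.58.1, in R 4.3.3) was used for the counts. Genes passed filterByExpr (minimum count 10, minimum total 15), scaling was by TMM, and the quasi-likelihood fit gave every group its own mean, with 6 residual degrees of freedom over the 9 libraries. Adjustment followed Benjamini and Hochberg over the 16350 tested genes, and a gene was called at an adjusted p under 0.05. Correlations with IL11 used log2 CPM with a prior count of 2. Alternatives were DESeq2 1.42.0, other scalings and filters, protein-coding genes alone, a replicate block, a fit of the compared groups only, an adjusted p under 0.01 and the omission of each library in turn. Of the deposited identifiers, 58207 were in GENCODE release 44, and 58169 (99.93%) had the same chromosome there and a start within 1 Mb. Promoters came from RefSeq (GRCh38.p14), and transcripts and exons from GENCODE.

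The genes and companion lists were chosen with earlier results of these data known. Named are the 10 chosen genes, their receptor subunits, CDK9 and ALK, the 5 genes most correlated with IL11 (mean of 1 CPM or more), and from each companion list up to 5 called genes per direction and comparison, taken by adjusted p. Not every gene this rule selects is reported here. Other names were chosen after their values were seen. The code was tested on simulated counts.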

Additional observations from a re-analysis of the deposited data

How the results depend on the processing

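Few counts were found for IL1A, CXCL2, CXCL3 and IL1B, and 0 for CCL2 in every library. IL11 was also low outside the inhibitor libraries, with 26 to 67 counts. DESeq2 called 1 of the chosen genes lower with the inhibitor (LIF) where edgeR called 0. Of the 2 receptors and transducers called lower with the inhibitor, 1 was called with upper quartile scaling, 1 with library size alone, 1 without a filter and 0 at an adjusted p under 0.01. Without inhibitor replicate 2 and Tyr19Phe CDK9 replicate 3, an alternative chosen after seeing the data, 0 were called. At an adjusted p under 0.01, the receptors and transducers called in Tyr19Phe CDK9 cells were 2 lower (from 5) and 1 higher (from 3). The other cytokines called lower there were 1 (from 2) at that threshold, with upper quartile scaling and with library size alone. The regulators called lower with the inhibitor were 1 (from 2) at that threshold and with library size alone. Those called higher with the inhibitor were 2 (from 1) with library size alone and with only the compared groups, and those called higher in Tyr19Phe CDK9 cells were 4 (from 9) at that threshold. The causes were not tested. When single libraries were left out, the chosen genes called lower were 0 to 1 in both comparisons with WT CDK9. Those called higher were 1 with the inhibitor, 3 to 4 with Tyr19Phe and 2 to 4 in the direct contrast, which had 1 lower throughout. The receptors and transducers called were 0 to 2 lower with the inhibitor, and 3 to 5 lower and 1 to 3 higher with Tyr19Phe. The other cytokines called with Tyr19Phe were 1 to 2 in each direction. The regulators called were 1 to 2 lower with the inhibitor, and 5 to 7 lower and 5 to 11 higher with Tyr19Phe. Equal replicate numbers did not deviate together from their group means (correlations between -0.012 and 0.026), so nothing was paired. With the replicate block, the chosen genes called were 1 higher with the inhibitor, 4 higher with Tyr19Phe, and 3 higher and 1 lower in the direct contrast, as without it, and the regulators called with Tyr19Phe were 8 lower and 10 higher.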
